A study of Gossypium hirsutum with 42 samples.

Results

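Gh_D07G0779 is a gene of the GRAS family of plant transcription factors, and 1 row of 100881 in the expression table carries its name. It was chosen by its FPKM values in these same libraries, high in most libraries of hybrids and listed at 0 in most of inbred parents. Its own levels are therefore described here without a test. The study sequenced root and leaf RNA from seedlings of upland cotton (Gossypium hirsutum) to compare hybrids that differ in heterosis with their inbred parents. The 7 genotypes were the hybrid H (SJ48-Z98-15, of high yield heterosis), the hybrid M (SJ48-851-2, medium), the hybrid L (SJ48-DT-8, low), and the inbred parents A (SJ48, the common mother), B (Z98-15), C (851-2) and D (DT-8). All were untreated seedlings raised in hydroponic nutrient solution and harvested once the true leaves were fully expanded, with 3 biological replicates per genotype and tissue and 42 libraries in all. Each genotype is 1 inbred line or 1 cross.

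GRAS proteins act in the nucleus with other transcription factors and take part in root patterning, light responses and hormone signalling. One branch, the DELLA proteins, represses the response to gibberellin, and these proteins are degraded once gibberellin is bound by its receptor GID1. DELLA proteins bind other regulators, among them INDETERMINATE DOMAIN (IDD) zinc finger proteins, and through them act on growth and on gibberellin synthesis itself. SCARECROW and SHORT-ROOT, which pattern the ground tissue of the root, belong to other branches, and the scarecrow-like (SCL) proteins spread over several.

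The table describes Gh_D07G0779 as a GRAS family transcription factor family protein and places it in the pathway of plant hormone signal transduction. It carries 13 gene ontology terms. Besides DNA binding and the nucleus they include negative regulation of gibberellic acid signalling, responses to ethylene and abscisic acid, jasmonic and salicylic acid signalling, seed germination and dormancy, salinity, and reactive oxygen species. The row is the locus MSTRG.43003 of the authors' assembly and holds 1 transcript, the annotated one. Its ortholog term is on 100 of the 108 rows of the GRAS family and does not set it apart, and the branch of the family it belongs to is not stated.

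The values were FPKM, read fragments scaled to transcript length and library size, a unit that allows levels of different genes to be compared. Read counts were not used here, so the depth behind each value is unknown and no counting interval is given. Library sums were between 391455.3 and 462951.6 FPKM. Leaf markers (71 rows of photosynthesis genes) summed to between 16975 and 23605 FPKM in leaf libraries and to between 158 and 394 FPKM in root libraries. Root markers (44 rows) summed to between 119 and 171 FPKM in root libraries and to between 43.2 and 55.7 FPKM in leaf libraries, so tissue labels and markers go together. Libraries were split here into classes of base quality (Q20), from the values in the study's sequencing summary. The cut was set at the widest gap in the upper part of the sorted values, which left 27 libraries lower and 15 higher. The lower class held all hybrid libraries, root and leaf of D and leaf of C, and the higher class held root and leaf of A and B and root of C.

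Gh_D07G0779 was high in every library of H and L and listed at 0 in every library of A and B, in root and leaf alike. In root of H it had 32.4, 34.6 and 34.6 FPKM, and in leaf of H it had 71.5, 63.0 and 65.0 FPKM. In root of L it had 31.95, 32.1 and 36.6 FPKM, and in leaf of L it had 56.1, 61.2 and 62.9 FPKM. Both hybrids share the mother A, in which all 3 root and all 3 leaf libraries were listed at 0.

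The hybrid M and the fathers C and D did not give a single state. In root of M the gene had 33.9 FPKM in replicate 1 and was listed at 0 in replicates 2 and 3. In leaf of M it had 61.5 and 59.0 FPKM in replicates 1 and 2 and was listed at 0 in replicate 3. In root of D it was listed at 0 in replicate 1 and had 35.6 and 36.9 FPKM in replicates 2 and 3. In leaf of D it was listed at 0 in replicates 1 and 2 and had 65.7 FPKM in replicate 3. Root of C was listed at 0 in all 3 replicates. In leaf of C replicate 2 had 57.2 FPKM and replicates 1 and 3 were listed at 0. The replicates of 5 of the 14 genotype and tissue groups therefore held both states.

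**Figure D1:**
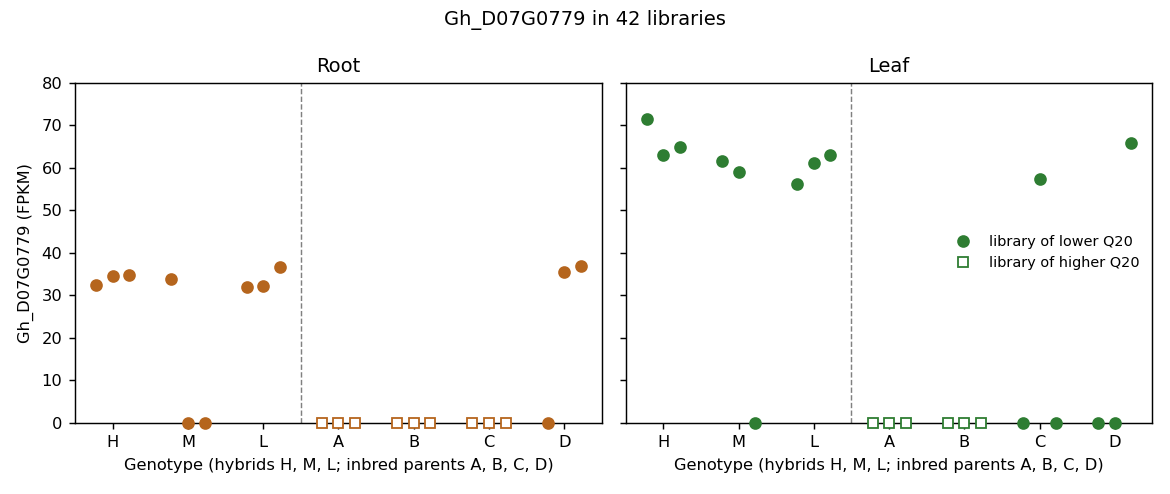
FPKM of Gh_D07G0779 (vertical axis) in root and in leaf of the hybrids H, M and L, left of the dashed line, and of the inbred parents A, B, C and D; each point is 1 library, filled circles are libraries of lower Q20 and open squares of higher Q20. Points lie either at 0 or between 31.95 and 36.9 FPKM in root and between 56.1 and 71.5 FPKM in leaf.

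A library was called on at an FPKM of 1 or more. The gene was on in 19 libraries and listed at 0 in 23, and no library lay in between, so limits of 0.1, 5 or 10 FPKM gave the same 19. It was on in 15 of 18 hybrid libraries and in 4 of 24 inbred libraries. By tissue, it was on in 7 of 9 hybrid and 2 of 12 inbred root libraries, and in 8 of 9 hybrid and 2 of 12 inbred leaf libraries. These counts restate what the gene was chosen for.

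The parents without any signal were those of H. For H, the 6 hybrid libraries were all on and the 12 libraries of A and B were all listed at 0. For L, the 6 hybrid libraries were on, but so were 2 of 3 root libraries and 1 of 3 leaf libraries of the father D. For M, 1 of 3 root and 2 of 3 leaf libraries were on, against 1 of 3 leaf libraries of the father C. Expression without a parental signal was thus seen for H in both tissues and for 1 root library of M, not for L in either tissue nor for M in leaf.

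The state also differed between the classes of base quality, and the part of base quality in it was not tested. The gene was on in 19 of the 27 libraries of lower Q20 and in 0 of the 15 of higher Q20. Within the lower class it was on in 15 of 18 hybrid libraries and in 4 of 9 inbred libraries. For H against A or B, M against A, M against C in root, and L against A, all hybrid libraries were of the lower class and all parent libraries of the higher class, so the class and the genotype cannot be told apart there. Only L against D in both tissues and M against C in leaf lie within 1 class. In these, 3 of 3 root libraries of L were on against 2 of 3 of D, 3 of 3 leaf libraries of L against 1 of 3 of D, and 2 of 3 leaf libraries of M against 1 of 3 of C.

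Where it was on, the gene had nearly the same level in every genotype. In root the 9 libraries that were on lay between 31.95 and 36.9 FPKM, with a median of 34.6 FPKM, a highest value 1.15 times the lowest and a coefficient of variation of 5.43%. In leaf the 10 libraries that were on lay between 56.1 and 71.5 FPKM, with a median of 62.2 FPKM, a ratio of 1.28 and a coefficient of variation of 7.21%. The inbred libraries that were on, at 35.6 and 36.9 FPKM in root and 57.2 and 65.7 FPKM in leaf, lay among the hybrid values or, for root replicate 3 of D, at the upper end.

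Means are given only for groups in which all replicates were on. Root of H averaged 33.9 ± 1.304 FPKM and root of L averaged 33.6 ± 2.64 FPKM (SD, n = 3 each), and the range of H lay inside that of L. Leaf of H averaged 66.5 ± 4.46 FPKM and leaf of L averaged 60.1 ± 3.55 FPKM (SD, n = 3 each). The lowest leaf library of H, at 63.0 FPKM, lay just above the highest of L, at 62.9 FPKM, a gap far smaller than either SD. By group median the order was leaf of H (65.0 FPKM), leaf of L (61.2), leaf of M (59.0), root of D (35.6), root of H (34.6) and root of L (32.1), and the median of the other 8 groups was 0. Where on, the range of root of L overlapped those of root of D and root of H. The root libraries of D that were on, at 35.6 and 36.9 FPKM, lay above every root library of H. Every leaf library that was on lay above every root library that was on.

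Root and leaf were harvested from the same plant, and libraries of the same number are taken here as 1 plant, although the labels do not state that the numbers match across tissues. The state was the same in root and leaf of 18 of 21 plants. Within each of A, B, H and L all libraries had the same state, so only plants of M, C and D could differ. Both tissues were on in 8 plants (all 3 of H, all 3 of L, replicate 1 of M and replicate 3 of D) and both were listed at 0 in 10 plants. The 3 plants with different states were M replicate 2 and C replicate 2, on in leaf alone, and D replicate 2, on in root alone. In the 8 plants with both tissues on, the leaf value was 1.72 to 2.21 times the root value, with a median of 1.82.

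**Figure D2:**
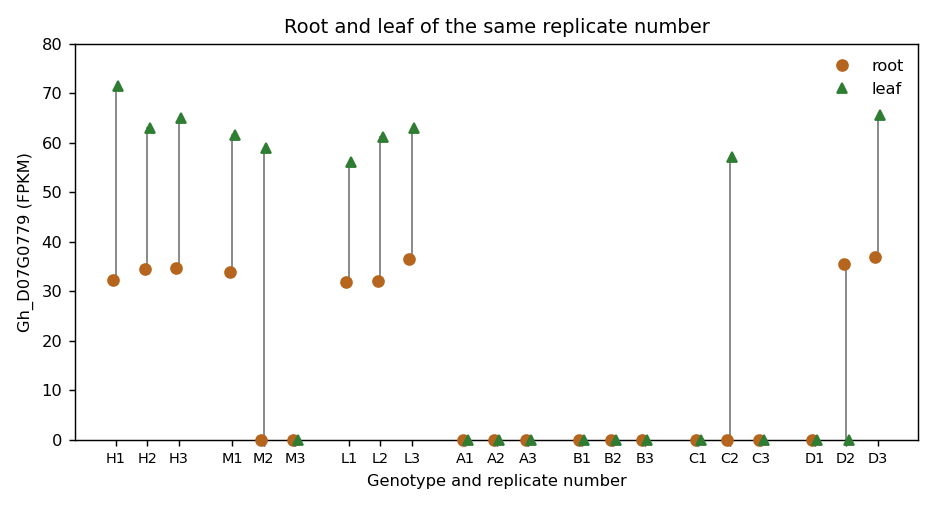
FPKM of Gh_D07G0779 (vertical axis) in root (circles) and leaf (triangles) of each genotype and replicate number, joined by a line. Both tissues have the same state in 18 of 21 pairs, and where both are on leaf lies above root by a median factor of 1.82. Within each of A, B, H and L all libraries have the same state.

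Being listed at exactly 0 in some libraries and at a high level in others was not peculiar to Gh_D07G0779. Among 15389 rows that reached 10 FPKM in at least 3 libraries, 58 (0.377%) were either at 0 or at 10 FPKM or more in every library, with at least 3 libraries in each state. Gh_D07G0779 was 1 of them and the only one of the GRAS family. With a limit of 1, 5 or 20 FPKM in place of 10 there were 2225, 208 or 10 such rows. In all 58 rows at least 1 group of replicates held both states, with a median of 4.5 groups, against 5 groups for Gh_D07G0779. All 58 rows, Gh_D07G0779 included, held 1 transcript, against 32.9% of the 15389 rows.

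The other 57 rows included some described as photosystem, ATP synthase, ubiquitin and ribosomal genes. Gh_D05G3725, photosystem I subunit G, was listed at 435 to 613 FPKM in 11 of 21 leaf libraries and at 0 in the other 10. Gh_D01G0287, a delta subunit of ATP synthase, was listed at 365 to 564 FPKM in 17 leaf libraries and at 0 in the rest. Gh_D04G1099, ubiquitin 8, had values above 0 in 6 leaf and 3 root libraries, and Gh_D07G0812, of the ribosomal L27e family, in 16 leaf and 17 root libraries. These rows were chosen as examples after their values were seen. Another row, Gh_A04G0636, is also described as ubiquitin 8, so a value of 0 in 1 row does not give the RNA of all copies. A value of 0 is reported here only as listed, and what produced the zeros of Gh_D07G0779 was not tested.

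**Figure D3:**
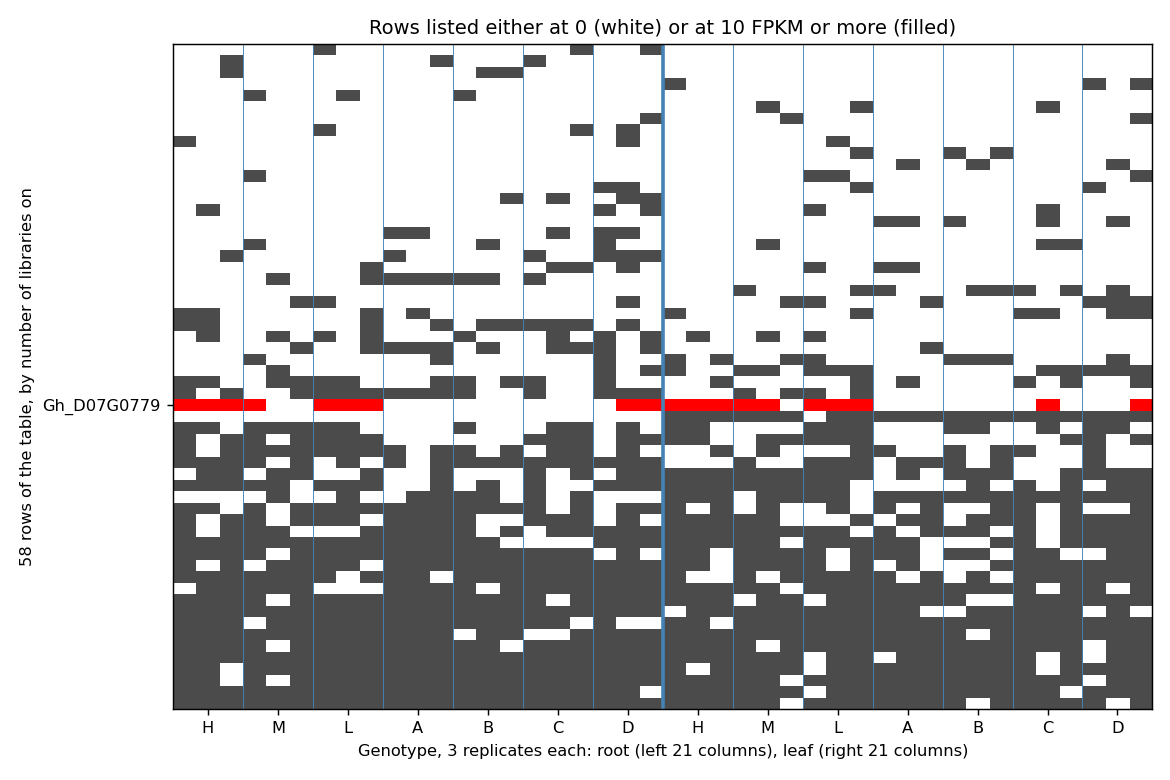
State of the 58 rows that are either at 0 (white) or at 10 FPKM or more (filled) in every library, ordered by the number of libraries on, with 21 root columns on the left and 21 leaf columns on the right, H, M and L before A, B, C and D. Gh_D07G0779 (red) is on in 19 libraries, none of them of A or B, and every row mixes both states in at least 1 group of replicates.

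Among these rows Gh_D07G0779 was steady where it was on. Its coefficient of variation of 5.43% in root was undercut by 1 of the 46 other rows on in 3 or more root libraries (median 20.6%), and its 7.21% in leaf by 2 of 42 (median 19.99%). The number of such rows on in a library was between 21 and 34 (median 26) in the lower Q20 class and between 19 and 29 (median 23) in the higher. Of the 57 others, 8 were, like Gh_D07G0779, on in no library of the higher class. None had the same states: the closest shared its state with Gh_D07G0779 in 31 of 42 libraries.

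The pattern for which the gene was chosen was looked up over the whole table, so its own place there restates that choice. Only Gh_D07G0779 was listed at 0 in all 12 libraries of A and B and at 10 FPKM or more in all 6 of H. At 1 FPKM or more in H there was 1 other, the unnamed locus MSTRG.80781, with 7.54 to 18.5 FPKM in root of H and 9.41 to 24.1 FPKM in leaf of H. MSTRG.80781 was listed at 0 in every library of L and had 4.98 to 11.9 FPKM in root of D. In root alone the 10 FPKM limit also gave Gh_A09G2325, with no description, at 22.9 to 24.8 FPKM in H and at 11.2 to 14.4 FPKM in D. The table does not describe what either locus encodes, and in both the father D had values above 0 in all 3 root replicates.

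The rest of the GRAS family was listed at lower levels in the libraries in which Gh_D07G0779 was on. Of 107 other rows with a GRAS or scarecrow-like description, 31 reached 1 FPKM in at least 3 root libraries and 14 in at least 3 leaf libraries. In neither tissue did any of them have a median above the lowest value of Gh_D07G0779 where on. Over all libraries of a tissue, on or not, the median of Gh_D07G0779 itself was 0 in root and in leaf. That was below the medians of the row Gh_D05G0918;Gh_D05G0919, 13.2 FPKM in root and 10.3 FPKM in leaf. Only 5 reached 10 FPKM in any library, and 11 were above 0 in all 42.

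Of the 9 other rows that share its description, Gh_A07G0717 was the highest. It had 2.59 to 30.4 FPKM (median 3.64) in hybrid root and 0 to 7.24 FPKM (median 3.69) in inbred root. In leaf it had 4.98 to 44.1 FPKM (median 6.28) in hybrids and 3.29 to 19.2 FPKM (median 6.52) in inbreds. Hybrids and inbreds overlapped in both tissues, and 3 single libraries stood far above their replicates: root replicate 2 of H at 30.4 FPKM, leaf replicate 2 of M at 44.1 FPKM and leaf replicate 2 of C at 19.2 FPKM. Gh_D07G0779 was on in these 3 libraries, at 34.6, 59.0 and 57.2 FPKM, and also in others where Gh_A07G0717 did not stand out. Reads of cotton gene copies that are nearly alike could be split between rows, so the values of both genes are uncertain in that respect. Whether these rows are such copies is not stated in the sources used here, and a split of reads was not tested. The other 8 rows of that description had root medians of at most 0.496 FPKM and leaf medians of at most 0.156 FPKM.

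The 10 rows described as RGA-like, a name for DELLA proteins in Arabidopsis, were near 0. Their highest row median was 0.167 FPKM in root and 0.0282 FPKM in leaf, and 1 row, Gh_A09G2415, reached 1 FPKM in root. Of the other GRAS rows whose identifiers carry A07 or D07, Gh_D07G1817 and Gh_A07G1618 (scarecrow-like 3, in Arabidopsis an antagonist of DELLA proteins), Gh_A07G0906 (SCARECROW-like 14), Gh_D07G2168 and Gh_A07G1951 stayed at or below 1.93 FPKM in every library. Gh_D07G0779 had the highest value of the family in all 19 libraries in which it was on, at 1.14 to 6.40 times the next GRAS row (median 2.69).

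The other GRAS row with the highest mean FPKM in root and in leaf was the joint row Gh_D05G0918;Gh_D05G0919, which merges scarecrow-like transcription factor 11 with an FTSH protease, an enzyme of organelle protein turnover. It had 12.7 to 17.4 FPKM (median 13.4) in hybrid leaf and 6.54 to 11.2 FPKM (median 8.67) in inbred leaf, so every hybrid library lay above every inbred one, as in 3.74% of all rows tested in leaf. In root it had 12.6 to 15.6 FPKM (median 13.6) in hybrids and 8.46 to 15.7 FPKM (median 12.4) in inbreds, which overlap. Gh_D05G2290 and Gh_A05G2046, both SCARECROW-like 1, were root genes, with medians in hybrids and inbreds of 8.94 and 10.9 FPKM and of 6.78 and 7.41 FPKM in root, and with leaf medians of at most 0.804 FPKM. Gh_A02G0703, also SCARECROW-like 1, had medians of 7.29 FPKM in hybrid root and 7.41 FPKM in inbred root.

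**Figure D4:**
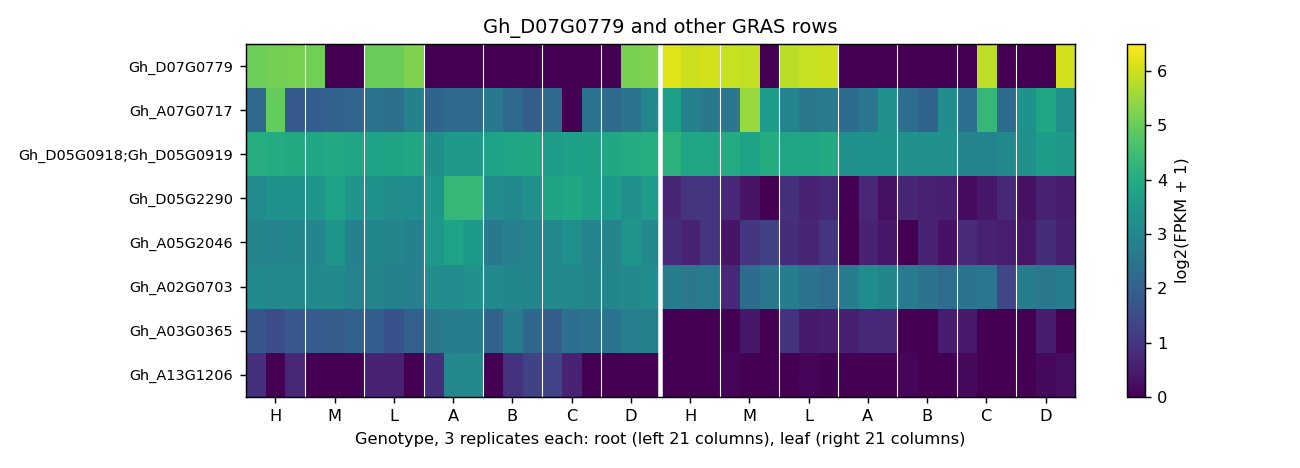
Expression, as log2(FPKM + 1), of Gh_D07G0779 and 7 other GRAS rows (vertical axis) in 42 libraries, 21 of root on the left and 21 of leaf on the right, with H, M and L before A, B, C and D. Only the top row switches between 0 and 31.95 FPKM or more; Gh_A07G0717 has 3 single libraries between 19.2 and 44.1 FPKM.

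Whether the rest of the family differed between hybrids and parents was asked with limma on log2(FPKM + 1), where 31 other GRAS rows were tested in root libraries and 14 in those of leaf. A call needed an adjusted p (Benjamini-Hochberg over all genes tested) under 0.05 and a log2 difference beyond 1 or -1. The comparisons of H, M and L with A share the A libraries. Base quality class and genotype cannot be told apart in comparisons with A or B, nor in M relative to C in root. The same limit holds for the lists of IDD and gibberellin genes below. In root, 2 of 31 rows fell in H relative to A (4.24% of all genes were called), 1 fell in M relative to A (3.55% of all genes) and 1 fell in L relative to A (3.63% of all genes). No row was called in H relative to B (2.62% of all genes), M relative to C (2.61%) or L relative to D (4.68%). In those 3 comparisons limma gave 3, 3 and 4 rows at an unadjusted p under 0.05. Of these GRAS rows, 1 in each comparison was higher in the hybrid. Over all 59282 genes tested in root, limma gave 15177, 15056 and 22164 at an unadjusted p under 0.05, in the same order. No GRAS row was called as higher in any root comparison. Median log2 differences of the 31 rows were between -0.17 and 0.02, beside medians of all genes between -0.0027 and 0.08.

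Among the GRAS rows called in root, the largest fall was that of Gh_A13G1206, scarecrow-like 5. It was listed at 0.857, 0 and 0.677 FPKM in root of H, at 0 in all 3 of M, at 0.578, 0.513 and 0 FPKM in L, and at 0.795, 7.04 and 7.36 FPKM in root of A. A replicate 1 lay with the hybrids, and A replicates 2 and 3 carried the difference. The log2 difference was -1.76 ± 0.49 (SE) in H, -2.30 ± 0.49 in M and -1.89 ± 0.49 in L relative to A, with limma adjusted p of 0.0159, 0.00328 and 0.0120, and it understates the change of so low a gene. Without replicate 2 none of the 3 was called, at limma adjusted p of 0.334 in H, 0.101 in M and 0.192 in L, and without replicate 3 the gene did not pass the filter on low values. The other fall was that of Gh_A03G0365, SCARECROW-like 14, whose Arabidopsis counterpart works with TGA factors in detoxification. It had 2.34, 1.89 and 2.37 FPKM in root of H and 4.94, 5.64 and 5.72 FPKM in root of A, with no overlap. Its log2 difference was -1.01 ± 0.17 (SE, limma adjusted p = 0.000523), just past the limit, and -0.91 without replicate 2.

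In leaf, 1 of 14 rows fell, in M relative to A (6.32% of all genes were called). No row was called in H relative to A (5.14% of all genes), H relative to B (3.50%), M relative to C (4.49%), L relative to A (4.89%) or L relative to D (2.97%), where limma gave 3, 2, 5, 1 and 2 rows at an unadjusted p under 0.05. Of these GRAS rows, 1, 1, 3, 1 and 2 were higher in the hybrid, in the same order. Over all 54835 genes tested in leaf, limma gave 19347, 17898, 18197, 18378 and 15786 at an unadjusted p under 0.05, in that order too. No GRAS row was called as higher in any leaf comparison. The gene that fell was Gh_A02G0703, with 0.688, 3.93 and 5.10 FPKM in leaf of M and 5.71, 7.88 and 6.93 FPKM in leaf of A. The log2 difference was -1.07 ± 0.36 (SE, limma adjusted p = 0.0349). Leaf replicate 1 of M was far below the others, and without replicate 1 the difference was -0.61 (limma adjusted p = 0.192), while without replicate 2 it was -1.18 (limma adjusted p = 0.150). Median log2 differences of the 14 rows were between -0.16 and 0.15, beside medians of all genes between -0.0013 and 0.13.

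The lists of DELLA partners and of genes with gibberellin in their description were compared in the same fit. Of 14 IDD rows tested in root none was called in any comparison, beside 2.61% to 4.68% of all genes called. At an unadjusted p under 0.05 limma gave 4 to 7 of the 14 rows. Over all genes tested, limma gave 15056 to 22164 of 59282 at that unadjusted p in root and 15786 to 19888 of 54835 in leaf. Median log2 differences of the IDD rows were between -0.38 (L relative to D) and 0.02 (H relative to B) in root and between -0.20 and 0.06 in leaf. In root of H, M and L relative to A they were -0.31, -0.31 and -0.28, beside the medians of all genes given above. Of 19 tested in leaf, none was called in 5 comparisons, where limma gave 4 to 9 rows at an unadjusted p under 0.05, and 1 fell in M relative to A (6.32% of all genes): Gh_A05G1117, indeterminate domain 2, had 12.4, 17.0 and 10.9 FPKM in leaf of M and 30.9, 33.0 and 35.5 FPKM in leaf of A, a log2 difference of -1.26 ± 0.12 (SE, limma adjusted p = 5.98e-07). Its leaf values in H (14.9, 18.7 and 17.5 FPKM) and L (18.0, 16.4 and 16.8 FPKM) were below those in A as well, but the difference did not pass the log2 limit of 1. Over all leaf libraries it had 10.9 to 18.7 FPKM in hybrids and 23.4 to 35.5 FPKM in inbreds, so every hybrid library lay below every inbred one, as in 2.13% of all rows tested in leaf. In Arabidopsis the protein of that name binds DELLA proteins at gibberellin synthesis genes.

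Of 19 rows tested in each tissue with gibberellin in their description, 1 to 3 were called in 9 of 12 comparisons, beside 2.61% to 6.32% of all genes. Median log2 differences of the list were between -0.11 and 0.10 in root and between -0.28 and -0.02 in leaf. None was called in root of H relative to B, root of M relative to C and leaf of L relative to A, where limma gave 4, 3 and 7 rows at an unadjusted p under 0.05. Over all genes tested, limma gave 15177 and 15056 of 59282 in those root comparisons and 18378 of 54835 in that of leaf. Gh_D01G0300, a gibberellin 2-oxidase, an enzyme that inactivates gibberellin, fell in leaf in 4 comparisons. It had 0.293, 0.266 and 0.301 FPKM in leaf of H and 0.538, 0.580 and 0.508 FPKM in leaf of M, against 1.67, 2.15 and 3.69 FPKM in leaf of A. The log2 difference was -1.40 ± 0.18 in H and -1.14 ± 0.18 in M relative to A (SE, limma adjusted p = 2.42e-05 and 0.000166), -1.57 ± 0.18 in H relative to B and -1.06 ± 0.18 in M relative to C. Without replicate 3 the difference of M from A was -0.89, and without replicate 1 that of M from C was -0.93, both short of the log2 limit. In root of L relative to D, gibberellin 3-oxidase 1 (Gh_D06G2009, of the last step of synthesis) and gibberellin 2-oxidase 6 (Gh_D08G0451) fell, by 1.28 and 1.08 on the log2 scale, and the gibberellin-regulated gene Gh_D07G2220 rose by 1.03. The fall of Gh_D06G2009 was not called without any 1 of the 3 replicates (limma adjusted p of 0.0887, 0.0870 and 0.209), that of Gh_D08G0451 was -0.99 without replicate 1 and -0.88 without replicate 2, and the rise of Gh_D07G2220 was 0.85 without replicate 3. The gibberellin-regulated gene Gh_A09G2394 fell in root of H, M and L relative to A and rose in leaf of M relative to A. Its root values were at most 0.609 FPKM in hybrids and 0.523, 6.69 and 6.05 FPKM in A, so A replicate 1 lay with the hybrids. Without replicate 3 the 3 root falls were not called (limma adjusted p of 0.145 in H, 0.238 in M and 0.165 in L). Without replicate 2 the gene did not pass the filter on low values in root. Gh_A11G1986, of the same description, fell in leaf of H relative to A and rose in leaf of L relative to D, and neither call held without replicate 3 (limma adjusted p of 0.134 and 0.0789). The first was also lost without replicate 2 (0.135) and the second without replicate 1 (0.118), both by limma adjusted p. These genes were named after their values were seen, because so few passed.

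No gene followed Gh_D07G0779 closely across the 42 libraries. Likeness was measured as Pearson r of log2(FPKM + 1) over 42 libraries with 69602 other rows, as a description, since the libraries share genotype, tissue and base quality class. No other row had the same state, on or below 1 FPKM, in 40 or more of the 42 libraries. The best was an unnamed locus, MSTRG.79623, which agreed in 37 libraries (r = 0.60).

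The 10 rows of highest r lay between 0.70 and 0.75. They were Gh_D02G0928 (a Dof zinc finger DNA-binding protein, r = 0.75), Gh_D09G0123 (an RNA-binding KH domain protein, 0.74), Gh_D01G1639 (a bZIP transcription factor, 0.72), the DnaJ chaperone genes Gh_D11G2787 and Gh_A11G2469 (both 0.71), Gh_A12G1526 (a calcineurin-like phosphoesterase, 0.70) and the unnamed loci MSTRG.89719, MSTRG.63536, MSTRG.67958 and MSTRG.80004. All of them differed from Gh_D07G0779 in form, with no gap between 0 and a high level. Gh_D02G0928 had 1.05 to 3.39 FPKM (median 2.34) in hybrids and 0.498 to 1.89 FPKM (median 1.11) in inbreds. Gh_D11G2787 had 9.37 to 39.8 FPKM (median 20.6) in hybrids and 1.40 to 9.85 FPKM (median 3.99) in inbreds. Gh_D01G1639 agreed in state in 36 libraries, but at 0.976 to 1.96 FPKM in hybrids and 0.356 to 1.69 FPKM in inbreds it lay near the limit of 1 throughout.

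The lowest r were -0.74 for Gh_A03G0173, a mitochondrial substrate carrier at 41.02 to 108 FPKM in all libraries, and -0.71 for the homeodomain-like genes Gh_D12G2593 and Gh_A12G2465. Both homeodomain-like genes were above 0 in all libraries, with highest values of 39.8 and 39.0 FPKM. These 3 rows were named after their values were seen, and none had the on and off form.

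Rows whose identifiers or locus numbers lie next to that of Gh_D07G0779 did not share its states. The 13 rows (identifiers Gh_D07G0775 to Gh_D07G0784, 5 either side at most, and 2 locus numbers either side) had r between -0.22 and 0.24 and agreed in state in at most 25 of 42 libraries. The row of Gh_D07G0778 described as dehydroascorbate reductase 1, which recycles ascorbate, had 2.30 to 5.33 FPKM in root and 19.97 to 31.9 FPKM in leaf over all genotypes. Another row of that name, with no description, had 0 to 1.31 FPKM in root and 0 to 2.34 FPKM in leaf. Gh_D07G0782, reversibly glycosylated polypeptide 1, a cell wall sugar enzyme, had 7.55 to 22.8 FPKM in root and 1.51 to 4.55 FPKM in leaf. Gh_D07G0780 (AGAMOUS-like 8, a MADS-box factor) stayed at or below 2.09 FPKM, and Gh_D07G0783 (brassinosteroid-6-oxidase 2, an enzyme of brassinosteroid synthesis) had 2.07 to 4.89 FPKM in leaf. Another row named Gh_D07G0783, with no description, had 0.858 to 2.15 FPKM in leaf. The order of these genes on the chromosome is not given in the sources used here.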

How the data were processed

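Root and leaf RNA was sequenced as 42 paired-end libraries. Per the labels and the study's methods, the authors mapped reads with HISAT2 and assembled and quantified them with StringTie, and they deposited FPKM per gene and library without a version in those sources. Nothing was rescaled.

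Per tissue, limma 3.58.1 in R 4.3.3 was run on log2(FPKM + 1) of 21 libraries, with a mean for each genotype and a variance trend, for genes at 1 FPKM or more in at least 3 libraries, 2-sided, with Benjamini-Hochberg adjustment; it was tested on simulated data. Descriptions used Python 3.11.15, numpy 2.4.6, pandas 2.3.3 and scipy 1.17.1, and plots matplotlib 3.10.9. Q20 values were taken from the study's sequencing summary. The Q20 classes were made here, by a cut at the widest gap in the upper part of the sorted values.

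The gene and the lists (by words in the descriptions) were chosen with earlier results of these data known. Genes were named by rule: the 10 rows of highest r, GRAS rows called in a comparison, GRAS rows with A07 or D07 identifiers, the 3 highest GRAS rows per tissue, RGA-like rows and those sharing the description, and neighbouring identifiers; other names were chosen after values were seen and are marked so. A planned mean ± SD was replaced by library values in groups with zeros. The labels call the samples replicates of a genotype, and p-values measure the spread between them. As alternatives, the pseudocount was set to 0.1, the filter was dropped, quantile normalization or a replicate block was used, and each replicate was left out.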

Additional observations from a re-analysis of the deposited data

How the results depend on the processing

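The 19 libraries in which Gh_D07G0779 was on were the same at limits of 0.1, 5 and 10 FPKM. A restriction to libraries of lower Q20, chosen after seeing the data, could not change them, since all 19 were of that class. The 4 group means moved by less than 1 SD when a replicate was left out or libraries were scaled to 1 FPKM sum (16 values). Of the recomputed counts of other GRAS genes called, 60 stayed within 1.5 times and 24 did not. With a pseudocount of 0.1, 1 was called in H relative to A in root (2 before) and in leaf (0 before), 1 in M relative to C in root and in leaf (0 before) and 1 in L relative to D in root (0 before). Without the filter, 0 were called in M relative to A in leaf (1 before), and with quantile normalization 1 was called in H relative to A in leaf (0 before). With each replicate left out in turn, the counts were 0 to 3 in H relative to A, 0 to 1 in H relative to B, 0 to 1 in M relative to A, 0 to 2 in L relative to A and 0 to 1 in L relative to D in root, and 0 to 1 in M relative to A, 1 in M relative to C each time and 0 to 1 in L relative to A in leaf. The cause of these moves was not tested. The replicate numbers did not pair genotypes within a tissue: residuals of libraries of the same number correlated between -0.0388 and 0.0682 in root and between -0.0494 and 0.0970 in leaf. With the replicate number as a block, 1 GRAS gene was called in M relative to C in root (0 before), and the other 11 counts moved by less than 1.5 times. Of the 10 genes of highest r, 7 were shared with a pseudocount of 0.1, 5 with Spearman's rho, 0 in root libraries alone and 0 in leaf libraries alone. Quantile normalization set the median log2 difference of all genes, 0.13 at most in leaf, to between -0.0195 and -0.0030.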
